A study of Mus musculus with 26 samples.

Results

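The IgE receptor FcεRI and its proximal signalling genes were measured in 26 RNA-seq libraries of mouse bone marrow progenitors and of cultured mast cells. The genes were chosen by name for their role, with earlier results of these data known, and are 10 of the 52636 genes in the deposited tables. They comprise the receptor subunits Fcer1a, Ms4a2 and Fcer1g, the kinases Lyn, Fyn, Syk and Btk, and the adaptors Lat, Lat2 and Gab2. All 10 passed the filter on low counts in every comparison described here.

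The study asked what changes in mice without neutrophil serine protease 4 (NSP4), the protease encoded by Prss57. Wild-type and Prss57-/- mice were age-matched littermates, and the age of those that gave these libraries is not stated in the sources used here. The Prss57-/- strain was made in C57BL/6N embryonic stem cells and carries a germline deletion of Prss57 exon 2, so that every cell of these mice lacks the exon. Granulocyte-monocyte progenitors (GMPs) and common myeloid progenitors (CMPs) were sorted from the marrow of female mice as lineage-negative, SCA-1-negative, CD117+ CD34+ cells with high or low CD16/32 staining, with 4 wild-type and 4 Prss57-/- libraries of each. Bone marrow-derived mast cells (BMMCs) of male mice were grown from sorted GMPs in IL-3 and stem cell factor, with 5 wild-type and 5 Prss57-/- libraries. No animal or culture was treated further. GMP and CMP libraries shared a sequencing run and pool, and BMMC libraries had another, so that in any comparison of the mast cells with progenitors the cell type, the culture, the sex and the run cannot be told apart. The study describes its GMP and BMMC sequencing replicates as biological. The labels number the libraries of a group but do not tie them to animals, so that p-values measure the spread between libraries. The GMP libraries held between 35501671 and 51497962 gene reads, the CMP libraries between 32078404 and 53264762, and the shallower BMMC libraries between 18627626 and 28647216.

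FcεRI binds IgE at the surface of mast cells and basophils through its α chain, encoded by Fcer1a. The β chain, encoded by Ms4a2, and a pair of γ chains, encoded by Fcer1g, carry the immunoreceptor tyrosine-based activation motifs. When antigen crosslinks bound IgE, the Src family kinase Lyn phosphorylates these motifs, Syk docks on the γ chain, and Syk phosphorylates the membrane adaptors Lat and Lat2. Phospholipase C gamma assembles on Lat, and Btk is among its activating kinases. The Src family kinase Fyn feeds a parallel route through the adaptor Gab2 to phosphoinositide 3-kinase. The γ chain, Syk, Lyn and Btk also serve other receptors in many blood cells, whereas the α and β chains mark mast cells and basophils in mice.

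The α and β chain genes, which mark mast cells and basophils, are shown with the sequence ahead of their start sites. Fcer1a lies at chr1:173221284-173227214 and Ms4a2 at chr19:11615523-11623719 (GRCm38), both on the minus strand. The 250 bases before the start of each RefSeq entry are printed 5′ to 3′ on the strand of the gene, at chr1:173227230-173227479 for Fcer1a and at chr19:11623720-11623969 for Ms4a2, from the RefSeq table for GRCm38.p6. Capitals mark GATAA, the core bound by GATA factors such as GATA2, and its reverse complement TTATC.
Fcer1a: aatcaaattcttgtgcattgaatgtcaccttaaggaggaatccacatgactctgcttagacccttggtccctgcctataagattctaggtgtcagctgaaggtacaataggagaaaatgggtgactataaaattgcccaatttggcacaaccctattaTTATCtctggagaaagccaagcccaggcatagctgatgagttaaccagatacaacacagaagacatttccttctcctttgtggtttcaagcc
Ms4a2: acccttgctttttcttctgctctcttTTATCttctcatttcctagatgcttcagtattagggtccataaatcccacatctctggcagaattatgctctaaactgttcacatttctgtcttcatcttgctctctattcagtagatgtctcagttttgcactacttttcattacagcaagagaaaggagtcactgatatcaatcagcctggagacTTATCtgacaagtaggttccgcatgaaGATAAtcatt
The Fcer1a stretch held 1 match, 92 bases before the start, and the Ms4a2 stretch held 3, at 224, 37 and 10 bases before it. On either strand, 23.0% of 27025 promoters of this length held GATAA. Promoter sequences were found for 7 of the 10 genes. Syk held 1 GATAA match in 1 of its 2 entries, and Fcer1g, Lat, Fyn and Btk held none. The E-box letters CATGTG and CACGTG were also searched, on either strand. Fcer1a held 1 CATGTG 208 bases before the start and Lat 1 CACGTG 166 bases before it, which 12.2% and 6.05% of promoters hold, and the other genes held neither. A match is a description of these letters and no evidence of binding.

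The other genes lie at chr1:171229572-171234365 on the minus strand (Fcer1g), chr4:3678115-3813122 on the plus strand (Lyn), chr10:39368855-39565381 on the plus strand (Fyn) and chr13:52583173-52648792 on the plus strand (Syk). Btk lies at chrX:134542336-134583570 on the minus strand, Lat at chr7:126363824-126369570 on the minus strand, Lat2 at chr5:134600022-134615025 on the minus strand and Gab2 at chr7:97081586-97308946 on the plus strand. Reads within exons were counted. The exons of Lat2 share 952 bases with Rfc2 on the opposite strand, and whether the counting used the strand is not given in the sources used here, so that Lat2 values are uncertain.

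Levels are given as the deposited normalized RPKM, reads scaled by gene length and by a size factor for depth, which allows different genes to be set side by side. Prss57 itself was 145 ± 35.7 normalized RPKM (SD, n = 4) in wild-type GMPs and 23.2 ± 7.47 (SD, n = 4) in wild-type CMPs. Prss57-/- GMP libraries held 6 to 25 Prss57 reads against 18064 to 26556 in wild-type, and each Prss57-/- CMP library held 1 read against 2261 to 3926. Wild-type BMMC libraries held 2 to 27 Prss57 reads and the Prss57-/- libraries 0, where 0 reads allow up to 3 by counting error alone. In BMMCs the deleted gene was therefore near the detection limit in both genotypes.

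The mast cell label of the BMMCs was checked against 11 mast cell markers. Their summed level was 36294 ± 6329 normalized RPKM (SD, n = 5) in wild-type BMMCs, led by the tryptase gene Tpsb2, against 515 ± 60.3 (SD, n = 4) in wild-type GMPs. The 6 markers of granulocyte-macrophage progenitors, led by Mpo, summed to 31834 ± 3646 in wild-type GMPs and 5705 ± 1736 in wild-type CMPs (SD, n = 4 each).

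Some libraries stood apart, 2 of them most. Prss57-/- BMMC library 3 had the highest value of the 10 BMMC libraries for 34.8% of the 13938 genes tested and the lowest for 36.9%. It was the highest for 8 of 11 mast cell markers and the lowest for 2, among them Tpsab1, a tryptase gene, at 13.3 normalized RPKM against 513 to 1178 in the other BMMC libraries. It was the lowest for 7 of 8 macrophage markers and the highest for 1, and the lowest for 3 of 4 basophil markers and the highest for 1. Its macrophage markers summed to 231 normalized RPKM against 1246 to 1957 in the other BMMC libraries. Prss57-/- CMP library 2 had the highest value of the 8 CMP libraries for 36.6% of 14916 genes and the lowest for 32.7%, and its normalized RPKM fell by 0.316 on the log2 scale per doubling of gene length, relative to the other libraries. Prss57-/- CMP library 1 was the highest for 28.1% and the lowest for 26.5% of the same genes, with a rise of 0.258 per doubling of length. Wild-type GMP library 1 was the highest of the 8 GMP libraries for 25.0% and the lowest for 28.2% of 14689 genes, with a slope of -0.195. Where a call of the 10 genes changed without 1 of these libraries, both values are given.

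**Figure D1:**
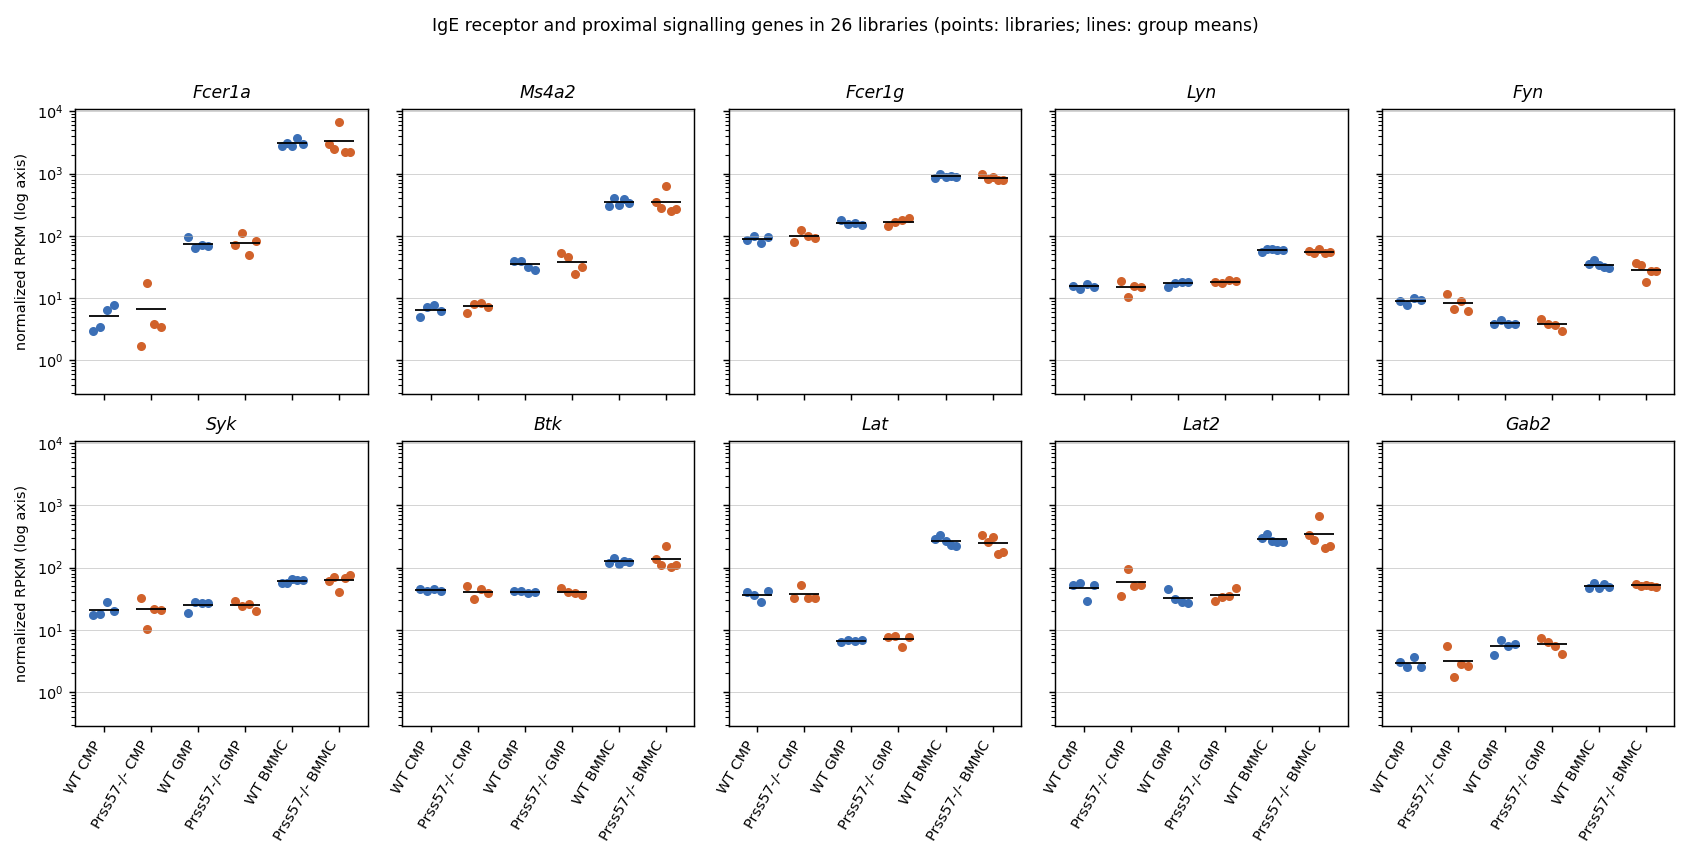
Normalized RPKM (log axis) of the 10 genes in each of the 26 libraries, by genotype and cell type; points are libraries and horizontal bars are group means. Fcer1a ran from 1.69 in a CMP library to 6786 in Prss57-/- BMMC library 3, and all 10 genes were higher in every BMMC library than in any progenitor library, as were 26.3% of the 14572 genes tested between BMMCs and GMPs in both genotypes.

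Within wild-type GMPs, Fcer1g stood highest and Fcer1a second, with no overlap between the ranges of neighbouring genes at either step. Btk, Ms4a2, Lat2 and Syk followed, each overlapping its neighbour, then Lyn. Lat, Gab2 and Fyn were lowest, where Gab2 overlapped both of the others and Lat stayed above Fyn in every library. The order of means was the same in Prss57-/- GMPs. In wild-type CMPs, Fcer1g was again the highest, followed by Lat2, Btk and Lat, then Syk, Lyn and Fyn, and last by Ms4a2, Fcer1a and Gab2, where each of the last 3 overlapped its neighbour. In BMMCs of both genotypes Fcer1a headed the order, above Fcer1g, and Fyn was the lowest.

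GMPs and CMPs were compared within each genotype, on the counts, to describe how receptor and signalling genes differed between these sorted progenitors. A gene was called where edgeR's quasi-likelihood test gave a Benjamini-Hochberg adjusted p under 0.01, printed as the edgeR adjusted p, and the fold change was at least 2. Among wild-type libraries Fcer1a and Ms4a2 were called higher in GMPs, where 6.28% of the 14967 genes tested were called higher, and Fyn and Lat were called lower, where 6.53% were. Among Prss57-/- libraries Fcer1a and Ms4a2 were called higher and Lat lower, against 4.04% and 4.38% of the 14959 genes tested, 1259 genes in all. That number was 2266 without Prss57-/- CMP library 1, with Fcer1a, Ms4a2, Lat and Gab2 called among the 10, and 1345 without Prss57-/- CMP library 2, with Fcer1a, Ms4a2, Lat and Fyn called. The median log2 fold change of the 10 genes was 0.23 (wild-type) and 0.30 (Prss57-/-), and that of all genes was -0.02 and -0.03. GMP and CMP levels did not overlap for 6 of the 10 genes in wild-type and 5 in Prss57-/- libraries, as was the case for 31.5% and 28.5% of the genes tested. In bulk libraries, fewer cells of a type and less RNA per cell cannot be told apart.

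Fcer1a, the IgE-binding α chain, was 96.3, 62.6, 72.2 and 67.8 normalized RPKM in wild-type GMP libraries 1 to 4 and 2.92, 3.41, 6.41 and 7.60 in wild-type CMP libraries. It was 72.1, 109, 48.6 and 80.8 in Prss57-/- GMPs and 1.69, 17.4, 3.79 and 3.42 in Prss57-/- CMPs. Every GMP library was above every CMP library, and Prss57-/- CMP library 2 was the highest CMP library by a wide gap. The level was 14.8-fold higher in wild-type GMPs than CMPs (log2 fold change 3.89, SE 0.32, edgeR adjusted p = 1.01e-05). Among Prss57-/- libraries the log2 fold change was 3.65 (SE 0.68, edgeR adjusted p = 0.00496) and 4.74 without Prss57-/- CMP library 2. This call was near the threshold, since leaving out any 1 of the 4 Prss57-/- GMP libraries, or Prss57-/- CMP library 3 or 4, gave edgeR adjusted p-values between 0.011 and 0.0216. Fcer1a had 110 to 487 reads per CMP library.

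Ms4a2, the β chain that amplifies the signal, was 39.3, 38.9, 31.9 and 28.6 normalized RPKM in wild-type GMPs and 4.99, 7.04, 7.58 and 6.23 in wild-type CMPs. The Prss57-/- libraries held 52.5, 45.3, 24.0 and 31.2 in GMPs and 5.76, 7.99, 8.14 and 7.23 in CMPs. The groups did not overlap, and Ms4a2 was 5.42-fold higher in wild-type GMPs (log2 fold change 2.44, SE 0.17, edgeR adjusted p = 3.4e-06). In Prss57-/- libraries the log2 fold change was also 2.44 (SE 0.26, edgeR adjusted p = 0.000313).

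Fcer1g, the γ chain shared with other Fc receptors, was 182, 152, 159 and 148 normalized RPKM in wild-type GMPs and 86.3, 99.3, 75.1 and 94.3 in wild-type CMPs. It was 141, 163, 179.5 and 191 in Prss57-/- GMPs and 77.8, 126, 98.2 and 93.0 in Prss57-/- CMPs. GMP and CMP libraries did not overlap, but the change was 1.83-fold in wild-type libraries, short of the 2-fold limit (log2 fold change 0.87, SE 0.12, edgeR adjusted p = 0.000244). In Prss57-/- libraries its log2 fold change was 0.83 (SE 0.18, edgeR adjusted p = 0.00995).

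Among the kinases, Fyn was called lower in wild-type GMPs. It was 3.77, 4.49, 3.81 and 3.80 normalized RPKM in wild-type GMPs and 8.98, 7.70, 9.90 and 9.15 in wild-type CMPs, a log2 fold change of -1.15 (SE 0.13, edgeR adjusted p = 7.09e-05). Prss57-/- GMPs held 4.54, 3.84, 3.67 and 2.94 and Prss57-/- CMPs 11.5, 6.72, 8.77 and 6.18. All GMP libraries lay below all CMP libraries, while the log2 fold change of -1.11 in Prss57-/- libraries missed the threshold (SE 0.24, edgeR adjusted p = 0.0104) and passed it without Prss57-/- CMP library 2, at -1.21. With all libraries, Fyn was called there by limma voom (adjusted p = 0.00985), by DESeq2 (adjusted p = 0.000117) and by edgeR with RLE factors (adjusted p = 0.00974). Syk was 18.4 to 28.0 in wild-type GMPs and 17.6 to 28.1 in wild-type CMPs, Lyn was 14.9 to 18.1 and 14.1 to 16.9, and Btk was 39.1 to 41.8 and 41.4 to 45.6. The ranges of these 3 kinases overlapped between the progenitors, with wild-type log2 fold changes of 0.29 for Syk (95% interval -0.13 to 0.72), 0.17 for Lyn (-0.08 to 0.42) and -0.07 for Btk (-0.27 to 0.13). None of them was called in either genotype, and each of these wild-type intervals stayed within a 2-fold change.

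The adaptors did not move together. Lat, the scaffold on which phospholipase C gamma assembles, was 6.38, 6.88, 6.71 and 6.85 normalized RPKM in wild-type GMPs and 40.0, 36.5, 28.4 and 41.8 in wild-type CMPs. Prss57-/- GMPs held 7.68, 7.82, 5.38 and 7.54 and Prss57-/- CMPs 31.9, 51.8, 32.1 and 32.1. Lat was lower in every GMP library than in any CMP library, with a log2 fold change of -2.43 in wild-type (SE 0.14, edgeR adjusted p = 1.29e-06) and -2.33 in Prss57-/- libraries (SE 0.21, edgeR adjusted p = 0.000149). Lat2, its relative in myeloid and B cells, overlapped between the progenitors at 26.9 to 44.8 in wild-type GMPs and 29.2 to 56.6 in wild-type CMPs, and its log2 fold change of -0.51 did not pass (SE 0.22, edgeR adjusted p = 0.0862). Gab2, the adaptor of the Fyn route, was 3.89, 6.76, 5.55 and 5.90 in wild-type GMPs and 3.02, 2.52, 3.62 and 2.53 in wild-type CMPs. The wild-type groups of Gab2 did not overlap, but its 1.91-fold difference stayed under the 2-fold limit (log2 fold change 0.94, SE 0.19, edgeR adjusted p = 0.0039), and it passed that limit without wild-type GMP library 1 or wild-type CMP library 3, at 1.09 in both. In Prss57-/- libraries Gab2 had a log2 fold change of 0.92 (SE 0.34, edgeR adjusted p = 0.0816), and it was called without Prss57-/- CMP library 1, at 1.32. The exons of Gab2 span 6168 bases, and these libraries had length slopes of -0.195 (wild-type GMP library 1), 0.192 (wild-type CMP library 3) and 0.258 (Prss57-/- CMP library 1) on the log2 scale per doubling of length, whose part in the Gab2 values was not tested.

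**Figure D2:**
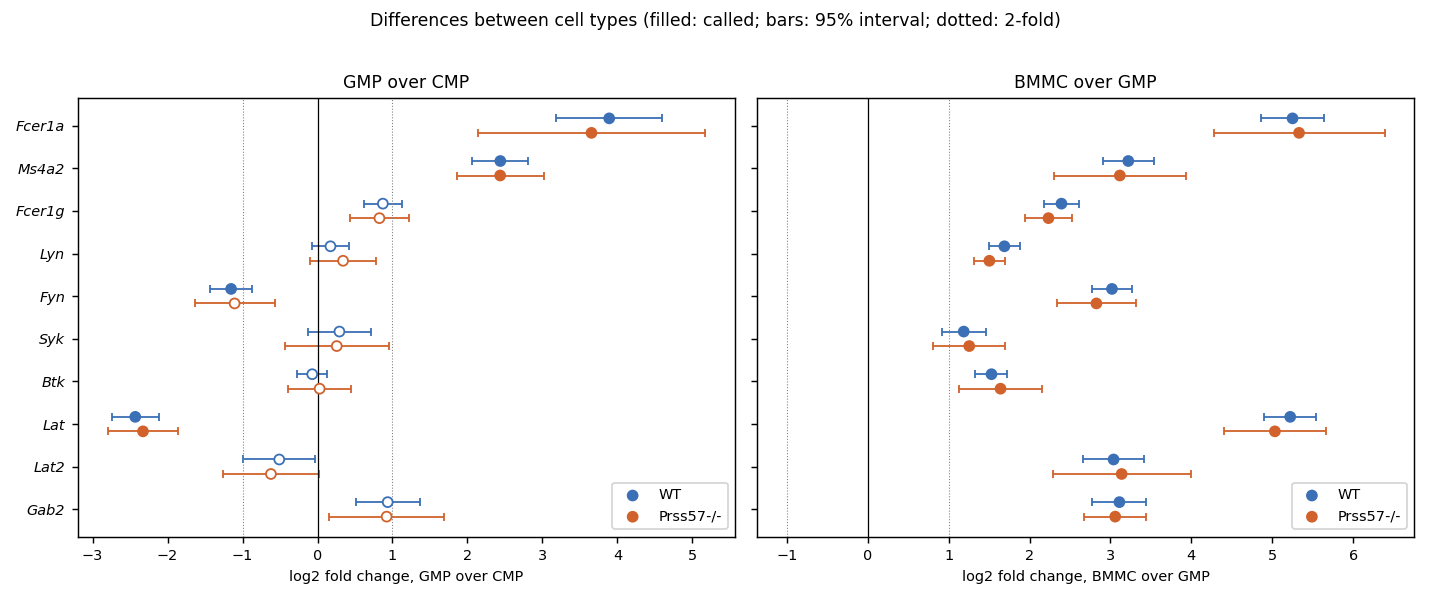
Log2 fold changes of the 10 genes between GMPs and CMPs and between BMMCs and GMPs within each genotype, from edgeR, with 95% intervals as bars, filled points for genes called and positive values for genes higher in the first cell type. Between GMPs and CMPs the genes ran from -2.43 for Lat to 3.89 for Fcer1a in wild-type libraries, while between BMMCs and GMPs all were above 1.

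Markers of other cells moved between the same libraries. The 4 basophil markers, led by Prss34 in GMPs and by Mcpt8 in CMPs, summed to 1953 ± 181 normalized RPKM in wild-type GMPs and 38.4 ± 14.5 in wild-type CMPs (SD, n = 4 each), and 3 of 4 were called higher in wild-type GMPs. None of these 4 was at or below 3 reads in any library. Prss57-/- CMP library 2, high in Fcer1a, held the highest sum of the CMP libraries at 75.7, of which Mcpt8 made up 71.1. This library was the highest CMP library for 1 of the 4 markers. Its Prss34 level of 4.19 lay inside the 2.52 to 13.1 of the other CMP libraries. The 11 mast cell markers, led by Cpa3 in GMPs, summed to 515 ± 60.3 in wild-type GMPs and 215 ± 8.61 in wild-type CMPs, and 4 of the 8 tested were called higher in GMPs and 1 lower. The mast cell protease genes Tpsb2, Tpsab1, Cma1 and Mcpt4 were at 0 reads in all wild-type CMP libraries. Tpsab1 was at 0 reads in all GMP libraries as well. Mcpt4 was at or below 3 reads in wild-type GMP library 3 and Prss57-/- GMP libraries 3 and 4. The 5 megakaryocyte markers summed to 67.2 ± 21.3 in wild-type GMPs and 1278 ± 312 in wild-type CMPs, the direction of Lat, and 5 of 5 were called lower in GMPs. The sort kept CD117+ cells and left out cells stained for lineage antigens, CD11b and Gr-1 among them. The part of cells with the markers above in the differences of Fcer1a, Ms4a2 and Lat was not tested.

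BMMCs were compared with GMPs, the sorted population from which such cultures were started, in libraries that came from other mice. All 10 genes were called higher in BMMCs in both genotypes, where 27.3% of 14754 genes were called higher in wild-type and 25.6% of 14929 in Prss57-/- libraries. Called lower were 24.4% and 22.3% of genes and none of the 10. BMMC and GMP levels did not overlap for any of the 10, nor for 75.3% (wild-type) and 65.0% (Prss57-/-) of the genes tested. The median log2 fold change of the 10 genes was 3.03 in wild-type and 2.94 in Prss57-/- libraries, against -0.0045 and 0.03 for all genes. Leaving out Prss57-/- BMMC library 3 left all 10 called.

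Among the receptor subunits, Fcer1a was 2720.3, 3138, 2735, 3668 and 2941 normalized RPKM in the 5 wild-type BMMC libraries, 38.1-fold above wild-type GMPs (log2 fold change 5.25, SE 0.18, edgeR adjusted p = 1.39e-10). It was 2958, 2515, 6786, 2219.6 and 2189 in Prss57-/- BMMCs, where library 3 stood above the rest by a wide gap. The log2 fold change over Prss57-/- GMPs was 5.33 with library 3 and 4.90 without it. Ms4a2 was 296, 397, 309, 392 and 330.4 in wild-type BMMCs, 9.32-fold above wild-type GMPs (log2 fold change 3.22, SE 0.14, edgeR adjusted p = 1.36e-09). In Prss57-/- BMMCs it was 346, 283, 631, 246 and 266, again with library 3 the highest. Fcer1g was 851, 979, 872, 916 and 877 in wild-type BMMCs and 972, 818, 872, 799.7 and 779.9 in Prss57-/- BMMCs. Its libraries lay close together, with library 3 inside the range, and it was 5.26-fold above GMPs in wild-type (log2 fold change 2.39, SE 0.10, edgeR adjusted p = 5.28e-10).

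Lat was the adaptor with the largest difference. Its wild-type BMMC libraries held 283, 329, 272, 232 and 219 normalized RPKM and its Prss57-/- libraries 335, 254, 312, 163 and 178. It was 37.3-fold higher in wild-type BMMCs than GMPs (log2 fold change 5.22, SE 0.15, edgeR adjusted p = 4.2e-11), from the low GMP level described above. Against CMPs the same BMMC values are nearer, since Lat was 36.7 ± 5.93 normalized RPKM (SD, n = 4) in wild-type CMPs. Gab2 was 50.9 ± 4.63 in wild-type and 51.9 ± 2.24 in Prss57-/- BMMCs (SD, n = 5 each), and Lat2 was 287 ± 37.4 and 344 ± 191, the last with 673 in library 3. Their log2 fold changes over wild-type GMPs were 3.11 for Gab2 and 3.04 for Lat2.

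Among the kinases, Fyn was 34.7, 40.8, 33.6, 31.8 and 30.6 normalized RPKM in wild-type BMMCs and 35.9, 33.4, 18.3, 27.1 and 27.5 in Prss57-/- BMMCs, and its log2 fold change over wild-type GMPs was 3.02 (SE 0.11, edgeR adjusted p = 3.04e-10). The other kinases differed less. Lyn was 58.9 ± 2.43 in wild-type BMMCs (SD, n = 5), Btk 126 ± 11.8 and Syk 61.2 ± 4.06, with log2 fold changes over wild-type GMPs of 1.69, 1.53 and 1.19. The 95% intervals of the Src family kinases Lyn, 1.50 to 1.88, and Fyn, 2.77 to 3.26, did not overlap. With library size alone as the scale, Syk fell to 0.99 and missed the 2-fold limit.

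The subunits also changed in proportion. Per length, the ratio of Fcer1a to Fcer1g averaged 0.463 in wild-type GMPs (range 0.412 to 0.529), 0.0585 in wild-type CMPs (0.0339 to 0.0854) and 3.38 in wild-type BMMCs (3.13 to 4.00). The ratio of Ms4a2 to Fcer1g averaged 0.216 (0.193 to 0.256), 0.0739 (0.0578 to 0.101) and 0.383 (0.348 to 0.428) in the same order. For this ratio Prss57-/- GMPs (0.134 to 0.372) and Prss57-/- BMMCs (0.307 to 0.724) overlapped. In progenitors the γ chain transcript thus exceeded the α and β chain transcripts in every library, and in BMMCs the α chain transcript exceeded the γ chain transcript in every library. The ratio of Fcer1a to Ms4a2 averaged 2.17 in wild-type GMPs (1.61 to 2.45), 0.784 in wild-type CMPs (0.485 to 1.22) and 8.84 in wild-type BMMCs (7.90 to 9.36). Here Prss57-/- GMPs (1.37 to 2.59) and Prss57-/- CMPs (0.293 to 2.18) overlapped, with the highest CMP value in Prss57-/- CMP library 2. In Prss57-/- BMMCs the ratio of Fcer1a to Ms4a2 averaged 9.09 (8.24 to 10.7), with the highest value in library 3, which was high in both chains. The ratio of Lat to Lat2 averaged 0.214 in wild-type GMPs (0.142 to 0.255), 0.800 in wild-type CMPs (0.645 to 0.973) and 0.927 in wild-type BMMCs (0.849 to 0.997). CMPs and BMMCs overlapped in this ratio, and Prss57-/- BMMC library 3 held 0.463.

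**Figure D3:**
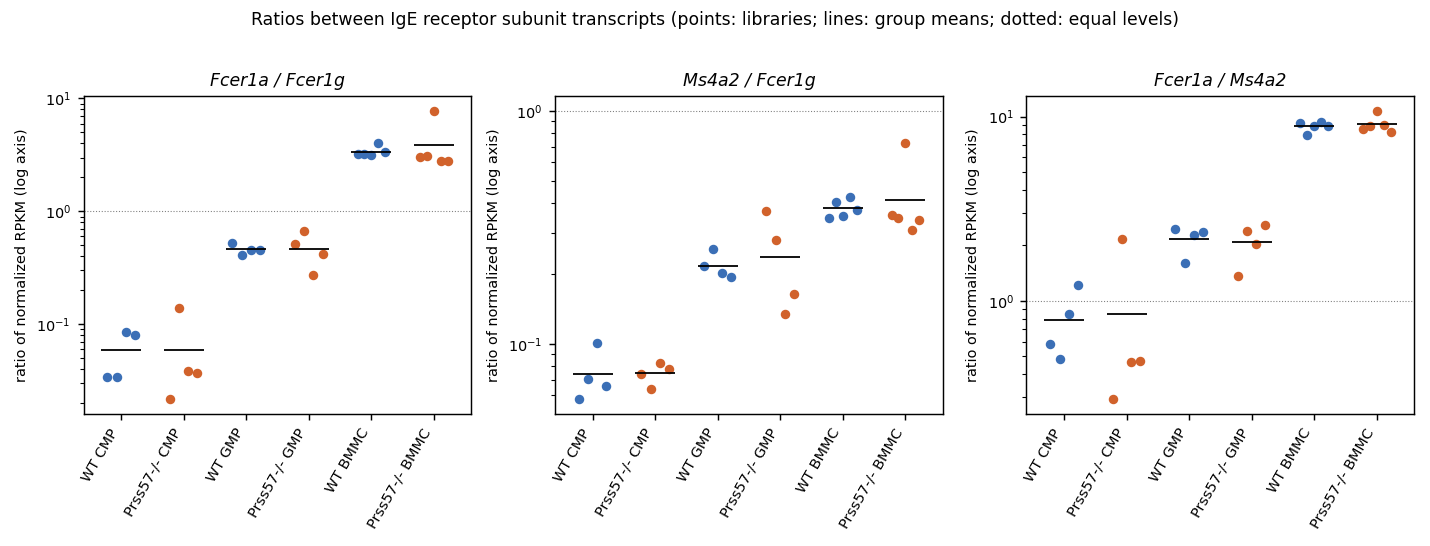
Ratios of normalized RPKM of Fcer1a to Fcer1g, Ms4a2 to Fcer1g and Fcer1a to Ms4a2 (log axes), 1 point per library, by genotype and cell type, with group means as horizontal bars and equal levels as a dotted line. The α to γ ratio was below 1 in every progenitor library and above 1 in every BMMC library, with Prss57-/- BMMC library 3 the highest at 7.78.

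Macrophage markers were also present in the BMMC libraries. The 8 macrophage markers summed to 1405 ± 145 normalized RPKM in wild-type BMMCs (SD, n = 5), with C1qb, a complement component, at 387 to 517, and 7 of the 8 were called higher and 1 lower than in wild-type GMPs. In the Prss57-/- BMMC libraries the sum was 1715, 1957, 231, 1580 and 1935. The 8 dendritic cell markers summed to 949 ± 230 in wild-type BMMCs (SD, n = 5) and to 63.4 in Prss57-/- BMMC library 3. Most of this sum was Cd74, at 778 ± 193, and H2-Ab1, at 133 ± 34.7, which other antigen-presenting cells also express. Xcr1 and Siglech, which mark dendritic cell subsets, had 0 to 1 reads per BMMC library, Cd209a had 0 to 5, and Flt3 was 0.136 ± 0.0332 against 5.73 ± 0.998 in wild-type GMPs. Of the 5 tested in wild-type libraries, 4 were called higher than in GMPs and 1 lower. Cpa3, a mast cell protease, was 29822 in library 3 against 10304 to 16854 in the other BMMC libraries. Fcer1a, Ms4a2, Lat2 and Btk were highest in the library with the lowest macrophage markers, and Syk and Fyn were lowest there. In a differentiation time course, the study describes nearly all cells as mast cells by flow cytometry for CD117 and FcεRIα. Which cells of the sequenced cultures held the macrophage and dendritic cell markers was not measured here. The part of such cells in the differences was not tested.

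**Figure D4:**
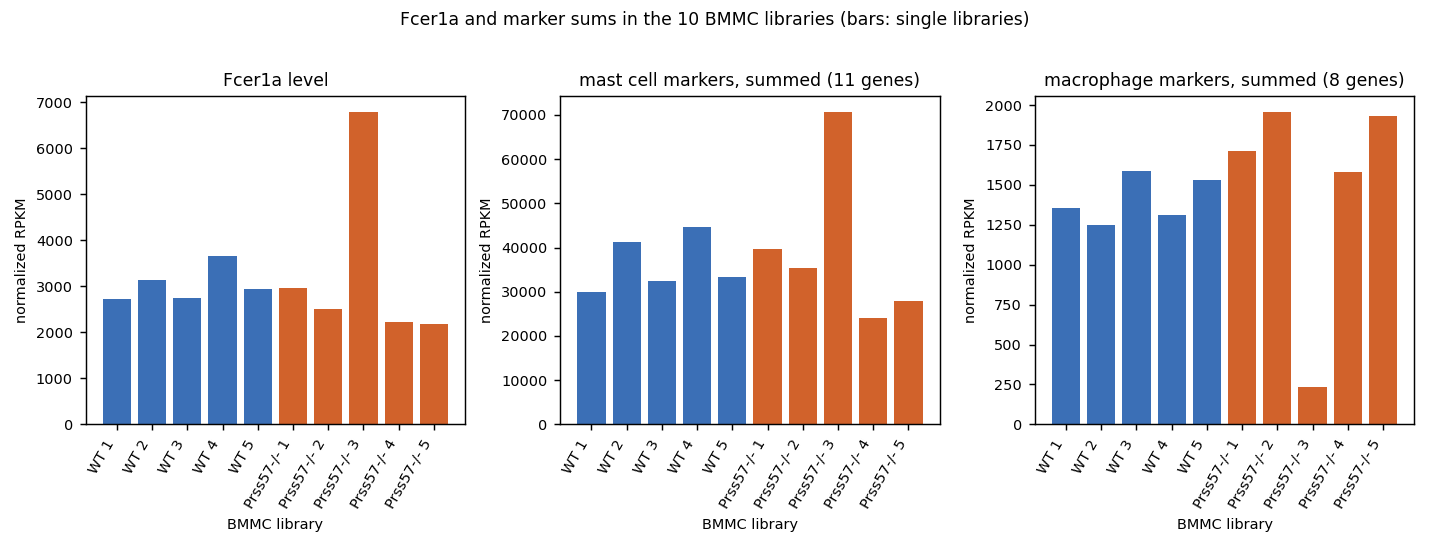
Normalized RPKM of Fcer1a and the summed normalized RPKM of 11 mast cell markers and 8 macrophage markers, with 1 bar for each of the 10 BMMC libraries. Prss57-/- BMMC library 3 has the highest Fcer1a, 6786, the highest mast cell sum, 70657, and the lowest macrophage sum, 231.

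The genotypes were compared within each cell type to ask whether these genes differed in the absence of Prss57. None of the 10 genes was called in GMPs, CMPs or BMMCs by edgeR, limma voom or DESeq2, and none had an unadjusted edgeR p under 0.05. Called were 0.00681% of the 14689 genes tested in GMPs and 0.00670% of the 14916 tested in CMPs, which is Prss57 itself in each, and 0% of the 13938 tested in BMMCs. Unadjusted p-values under 0.05 were held by 119, 76 and 332 genes, and these numbers depended on single libraries. In GMPs the number was 236 without Prss57-/- library 4 and 207 without wild-type library 1, and in CMPs it was 561 without Prss57-/- library 1 and 211 without Prss57-/- library 2. In BMMCs it was 1031 without Prss57-/- library 3, 624 without Prss57-/- library 4, and 195 and 198 without wild-type libraries 1 and 5. Of the 10 genes, Lat2 had an unadjusted edgeR p under 0.05 in GMPs without wild-type library 1 and Fyn in BMMCs without Prss57-/- library 1, beside those given below for Prss57-/- BMMC library 3, and none was called. Wild-type and Prss57-/- libraries overlapped for all 10 genes in every cell type, and did not overlap for 0.994%, 0.818% and 0.717% of the genes tested in GMPs, CMPs and BMMCs.

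The intervals show what these libraries could resolve. In GMPs the log2 fold changes of the 10 genes ran from -0.08 for Fyn to 0.16 for Lat2, and the widest 95% interval was that of Fcer1a, -0.44 to 0.55 around 0.05. In CMPs the interval of Fcer1a was -1.17 to 1.81 around 0.32, so that a 2-fold difference in either direction was within it, and the value was -0.79 without Prss57-/- CMP library 2 (edgeR adjusted p = 0.9998). The other 9 genes had intervals within 2-fold in CMPs, such as -0.28 to 0.58 for Ms4a2 and -0.46 to 0.44 for Lat. In BMMCs all 10 intervals were within 2-fold, with -0.57 to 0.83 for Fcer1a, -0.53 to 0.60 for Ms4a2, -0.27 to 0.10 for Fcer1g, -0.23 to 0.05 for Lyn and -0.14 to 0.19 for Gab2.

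Library 3 set the sign of several BMMC values. Without it, the log2 fold change of Fcer1a in Prss57-/- over wild-type BMMCs was -0.30 in place of 0.13 (edgeR adjusted p = 0.63). That of Ms4a2 was -0.28 in place of 0.04 (edgeR adjusted p = 0.661). Syk became 0.18 in place of 0.05 (edgeR adjusted p = 0.667), and Lyn -0.12 in place of -0.09. Lat2 and Btk also turned from positive to negative. Fcer1a, Ms4a2, Syk and Lyn had an unadjusted p under 0.05 without library 3, as did 7.28% of the 14162 genes then tested, and none of all genes was called. The remaining Prss57-/- BMMC libraries held macrophage marker sums of 1580 to 1957 normalized RPKM, against 1246 to 1585 in wild-type. Their mast cell marker sums were 24064 to 39643, against 29911 to 44612. The part of these markers' cells in the values without library 3 was not tested.

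**Figure D5:**
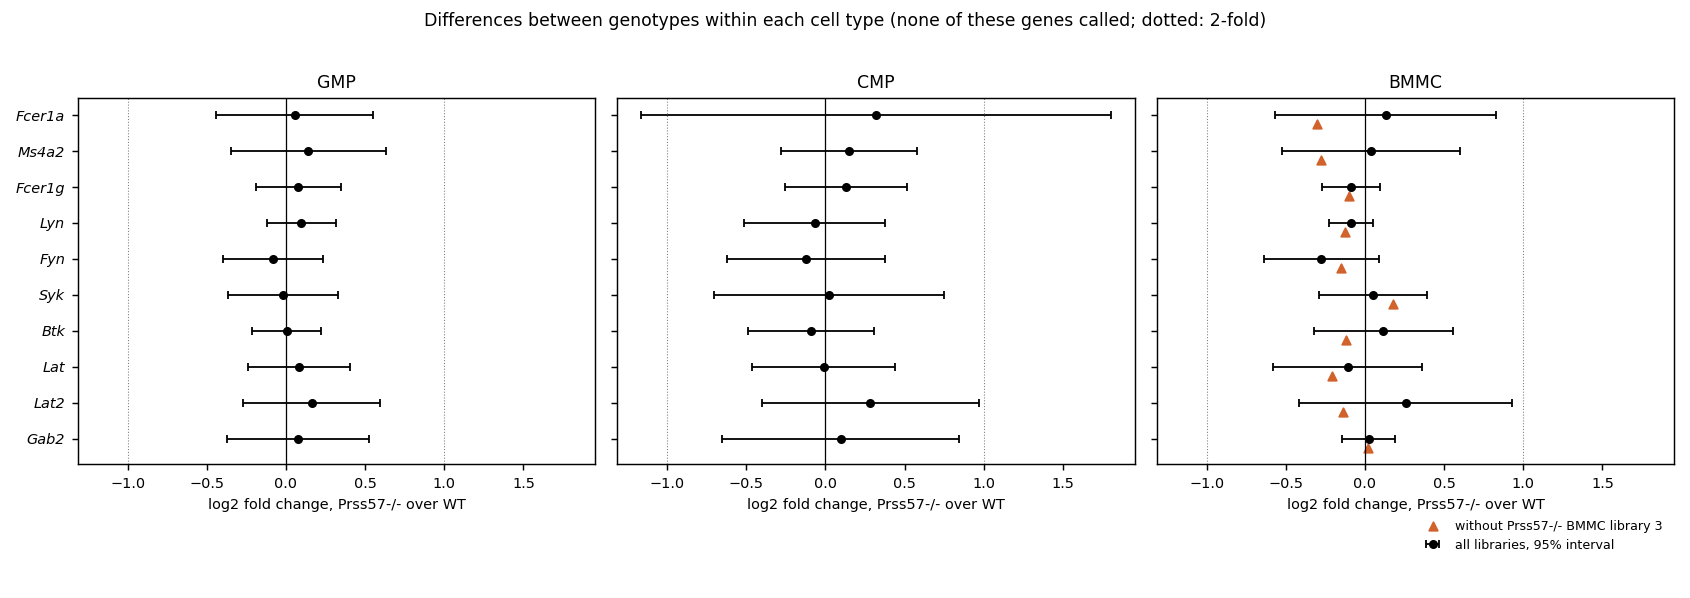
Log2 fold changes of the 10 genes in Prss57-/- over wild-type GMPs, CMPs and BMMCs, from edgeR, with 95% intervals as bars, 2-fold changes as dotted lines and, in BMMCs, the values without Prss57-/- library 3 as triangles. Only the CMP interval of Fcer1a, -1.17 to 1.81, crosses the 2-fold lines.

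The genotype effect in GMPs was also set against that in CMPs as an interaction term over the 16 progenitor libraries. The difference ran from -0.25 for Fcer1a to 0.15 for Lyn on the log2 scale, and none of the 10 genes was called (edgeR adjusted p = 0.999888 for each), as was the case for 0% of the 15900 genes tested, of which 169 had an unadjusted p under 0.05. That number was 475 without Prss57-/- CMP library 1, with none of the 10 genes among them. limma voom also called none of the 10.

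Other genes of the pathway were taken from lists, likewise chosen with earlier results known, of 24 downstream effectors, 20 negative regulators, 7 other Src and Syk family kinases and 7 other Fc receptors and adaptors with activation motifs. In wild-type GMPs against CMPs, 7 of 23 effectors tested were called higher and 1 lower, with a median log2 fold change of 0.56, beside 6.28% and 6.53% of all genes called and a median of -0.02. Among the effectors called higher were Prkcb, the protein kinase C beta gene, at 3.44 and Pik3r5, a regulatory subunit of phosphoinositide 3-kinase, at 1.70. Grap2, the adaptor that joins Lat to Lcp2, was the effector called lower, at -3.27, the direction of Lat. In Prss57-/- libraries 5 of 23 were called higher and 1 lower, beside 4.04% and 4.38% of all genes, among them Prkcb at 3.26 and Grap2 at -3.10.

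Of the negative regulators, 4 of 18 tested were called higher in wild-type GMPs than CMPs and 1 lower, with a median log2 fold change of 0.39, and 2 and 1 in Prss57-/- libraries. Without Fcgr2b, an antigen of the gate, they were 3 and 1 of 17 in wild-type, with a median of 0.34, and 1 and 1 of 17 in Prss57-/- libraries, beside the same shares of all genes. Spry2, an inhibitor of Ras signalling, was 1.59 (wild-type) and 1.94 (Prss57-/-) higher on the log2 scale. The inhibitory receptor gene Pilra was 2.24 higher in wild-type libraries, and Dok2, an adaptor that recruits Ras GTPase-activating protein, was called lower, at -2.18 and -2.19. Fcgr2b and Fcgr3 encode the CD32 and CD16 antigens on which GMPs and CMPs were gated, so that their values of 1.93 and 3.79 in wild-type libraries are no finding. Of the other kinases, Fgr was called higher, at 2.06, and Src lower, at -3.06, in wild-type libraries. Fcgr4, an activating IgG receptor that pairs with the γ chain, was 2.73 higher in wild-type and 2.07 in Prss57-/- GMPs. Some of these calls were near the threshold, since leaving out 1 library took Pik3r5 and Fgr in wild-type and Src, Fgr and Fcgr4 in Prss57-/- libraries to edgeR adjusted p-values between 0.0101 and 0.0303, with no change of sign.

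In BMMCs against GMPs, 16 of 24 effectors were called higher and 2 lower in wild-type libraries, with a median log2 fold change of 1.67, and 15 and 2 in Prss57-/- libraries, with a median of 1.61. Of all genes, 27.3% were called higher and 24.4% lower in wild-type and 25.6% and 22.3% in Prss57-/- libraries. Rasgrp1, a Ras activator, had 4 reads over the 4 wild-type GMP libraries, 3 of them in library 3, and 768 to 1331 reads per wild-type BMMC library, a ratio of pooled CPM of 2004 (95% counting interval 782 to 7357). With 1 library left out, its edgeR log2 fold change ran from 10.5 to 12.1 in wild-type libraries. In Prss57-/- libraries it ran from 8.32 to 9.65. The calcium-responsive factor gene Nfatc2 was 6.33 higher on the log2 scale and Prkcb 5.82 higher in wild-type libraries. Called lower were Vav3, a guanine nucleotide exchange factor, at -2.25 and the calcium channel gene Orai1 at -1.18, and they were -2.31 and -1.14 in Prss57-/- libraries. With replicate number as a block, Vav3 was not called in Prss57-/- libraries, at -2.74. Rasgrp4, a Ras activator of mast cells, was among the 3 largest in Prss57-/- libraries, at 6.37, but varied widely there, at 29.3 ± 31.6 normalized RPKM (SD, n = 5). It was 5.43 without Prss57-/- BMMC library 3, and DESeq2 gave no adjusted p for it.

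Negative regulators were called higher in BMMCs in 13 of 20 cases in wild-type and 15 of 20 in Prss57-/- libraries, with medians of 1.81 and 1.89, and none was called lower. The shares of all genes called higher were 27.3% and 25.6%, and those called lower 24.4% and 22.3%. The inhibitory receptor genes Cd300lf and Pirb were 9.14 and 7.37 higher on the log2 scale in wild-type libraries and 9.47 and 7.47 in Prss57-/- libraries, and Cd300lf was 9.99 in wild-type libraries without wild-type GMP library 1. Lilrb4a had 0 reads in all GMP libraries and 14 to 30 per wild-type BMMC library, at least 13.2-fold higher against a floor of 3 counts per library. Of the other kinases, 2 of 4 were called higher and 1 lower in wild-type libraries, namely Src at 5.92, Fgr at 4.91 and Lck at -1.16, and 2 and 0 in Prss57-/- libraries. Fcgr1, the high-affinity IgG receptor, was 5.40 and 4.87 higher, the latter 5.46 without Prss57-/- GMP library 3. Tyrobp, an adaptor with an activation motif, was called in Prss57-/- libraries, at 1.10, but fell under the 2-fold limit without Prss57-/- BMMC library 3, at 0.99, without Prss57-/- GMP library 1, at 0.97, and with library size alone, at 0.90. Many of these genes are also expressed by macrophages, whose markers were present in the same libraries, and this was not separated here. In the genotype comparisons, none of the 51 list genes tested in GMPs, 52 in CMPs and 53 in BMMCs was called by edgeR, limma voom or DESeq2. An unadjusted edgeR p under 0.05 was held by 1 in GMPs, the adaptor gene Clnk, by 0 in CMPs and by 1 in BMMCs, Pirb.

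Genes that followed the α and β chains were ranked by Pearson r on log2 normalized RPKM with a pseudocount of 0.1, as a description of libraries that share cell type, depth and run. Over the 16 progenitor libraries and 11470 genes, those most like Fcer1a were Tmed10 (r = 0.980), Mcpt8 (0.973), Trem1 (0.970), Cyp11a1 (0.970) and Atp6ap1 (0.966). Mcpt8 is a protease of basophils and Cyp11a1 an enzyme of steroid synthesis. Those most like Ms4a2 were Cyp11a1 (0.986), Fcgr2b (0.983), Kcnip3 (0.981), Gramd3 (0.981) and Alox15 (0.981). Fcer1a and Ms4a2 had an r of 0.950 with each other, Fcer1a and Fcer1g 0.933, and Lat and Fyn ran opposite, Lat at -0.890 with Fcer1a and -0.943 with Ms4a2 and Fyn at -0.919 and -0.895. Over all 26 libraries and 12182 genes, Cyp11a1 was the most like both, at 0.994 for Fcer1a and 0.996 for Ms4a2. It was followed for Fcer1a by Ms4a2 (0.991), Cd200r3 (0.989), Pilrb2 (0.986) and AB124611 (0.985), and for Ms4a2 by Cd200r3 (0.993), Fcer1a (0.991), Cma1 (0.991) and Tarm1 (0.990). Cd200r3 is a receptor of mast cells and basophils and Cma1 a mast cell chymase. The libraries fall into cell types that differ in these genes, and the ranking says nothing of shared control.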

How the data were processed

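Total RNA libraries were prepared with a stranded kit and sequenced as single-end 50-base reads. Reads were aligned by the authors to GRCm38 with GSNAP in HTSeqGenie, and uniquely aligned reads within exons were counted per gene. For each library the authors deposited raw counts and normalized RPKM, in which counts are scaled by gene length and by a size factor. No alignment or counting was repeated. Reads carried no molecular identifiers used here, so that intervals on counts and the floor of 3 counts cover counting error only.

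Counts were tested with the edgeR 4.0.16 quasi-likelihood test (R 4.3.3) with TMM normalization, filterByExpr and robust dispersion, within the groups compared and with no covariates, and p-values were adjusted over all genes tested by the Benjamini-Hochberg method. The criteria for a call were an adjusted p below 0.01 with a change of 2-fold or more. Alternatives were limma 3.58.1 voom, which the study used, DESeq2 1.42.0, RLE factors, library size alone, no filter beyond 1 count, an adjusted p under 0.05 without a fold limit, replicate number as a block, and leaving out each library. Fits were checked on simulated counts in which 200 genes were changed, and the outcome is not reported here. Tables were made in Python 3.11.15 (numpy 2.4.6, pandas 2.3.3, scipy 1.17.1) and plots with matplotlib 3.10.9.

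Gene positions came from GENCODE M21, which matched 52403 of 52636 genes, and promoters from RefSeq. The text names all 10 genes, Prss57, the 3 called genes of each pathway list with the largest change in each direction per comparison, and the 5 genes most like Fcer1a and Ms4a2 among those with a mean of at least 1 normalized RPKM. Some list genes that this rule names are not reported here. The genes, lists and markers were chosen with earlier results of these data known.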

Additional observations from a re-analysis of the deposited data

Results flagged for a closer look

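Of 60 groups of libraries examined, 6 for each of the 10 genes, 10 held a highest or lowest library whose gap to the next was large for the group's range by Dixon's 95% limit, where chance gives about 1 in 20. By the same limit, 9.66% of the sets of all genes tested held such a library, and 22.3% of those of Prss57-/- BMMCs and 13.3% of those of wild-type GMPs, so that the share among the 10 genes is read against these values. Prss57-/- BMMC library 3 accounted for 4 of the 10. It held 6786 normalized RPKM of Fcer1a against 2189 to 2958 in the other Prss57-/- BMMC libraries, 631 of Ms4a2 against 246 to 346, 673 of Lat2 against 207 to 339 and 219 of Btk against 104 to 136. The same library was low in macrophage markers, and their part in these values was not tested.

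Prss57-/- CMP library 2 accounted for 2, with 17.4 normalized RPKM of Fcer1a against 1.69 to 3.79 in the other Prss57-/- CMP libraries and 51.8 of Lat against 31.9 to 32.1. Scaled by library size alone, as CPM, Lat was 56.5 in this library and 47.0 to 53.2 in the other Prss57-/- CMP libraries. Wild-type CMP libraries held 46.7 to 62.0 CPM, so that the Lat gap depended on the scale. Fcer1a kept its gap, at 15.2 CPM against 2.26 to 4.66. In normalized RPKM, wild-type GMP library 1 was the lowest of its group for Syk, at 18.4 against 27.3 to 28.0, and for Lyn, at 14.9 against 17.6 to 18.1. Wild-type GMP library 2 was the highest for Fyn, at 4.49 against 3.77 to 3.81, and Prss57-/- GMP library 3 the lowest for Lat, at 5.38 against 7.54 to 7.82.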

How the results depend on the processing

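Leaving out 1 library at a time left 0 of the 10 genes called in every genotype comparison, 4 to 5 between wild-type GMPs and CMPs, 2 to 4 between Prss57-/- GMPs and CMPs, and all 10 between BMMCs and GMPs. Over all genes, the number called between genotypes in GMPs was 1 to 2, the higher without wild-type GMP library 1, and 2 with DESeq2 and at an adjusted p under 0.05 without a fold limit. In CMPs DESeq2 called 3. Between Prss57-/- GMPs and CMPs 785 to 2266 genes were called with 1 library left out, DESeq2 called 2156, and the looser limit called 3222 genes and 5 of the 10. The looser limit called 5664 genes between wild-type GMPs and CMPs, and 12030 and 11032 between BMMCs and GMPs of wild-type and Prss57-/- mice. With library size alone, 38.4% of the genes called between wild-type GMPs and CMPs were higher in GMPs, against 49.0% with TMM, and 36.8% against 48.0% in Prss57-/- libraries. Between BMMCs and GMPs the share higher in BMMCs was 46.2% against 52.8% in wild-type and 45.6% against 53.5% in Prss57-/- libraries. The median log2 fold change of all genes then moved to -0.16 between wild-type GMPs and CMPs and to -0.19 and -0.18 between BMMCs and GMPs of wild-type and Prss57-/- mice.

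Several genotype values of the 10 genes changed sign under other settings, with none called and the cause not tested. That of Fyn in BMMCs kept its sign with 1 library left out, at -0.36 to -0.15. Btk in GMPs was -0.0006 with the replicate block. In CMPs, Fcer1a was -0.26 with limma voom and -0.20 with the block, Syk -0.0702 and -0.0693 with these and -0.0055 with library size alone, and Gab2 -0.0237 with the block. In BMMCs, Fcer1a was -0.0268 with the block and Ms4a2 -0.0265 with limma voom and -0.057 with the block. Btk between Prss57-/- GMPs and CMPs was -0.0445 with library size alone and -0.0984 to 0.14 with 1 library left out. With 1 library left out, the log2 fold changes between genotypes in GMPs ran from -0.15 to 0.23 for Fcer1a, -0.0342 to 0.32 for Ms4a2, -0.14 to 0.0777 for Syk, -0.17 to 0.02 for Fyn, -0.0595 to 0.0632 for Btk and -0.0566 to 0.22 for Gab2. In CMPs they ran from -0.79 to 0.61 for Fcer1a, -0.0003 to 0.20 for Fcer1g, -0.26 to 0.25 for Syk, -0.22 to 0.0742 for Lyn, -0.34 to 0.0025 for Fyn, -0.21 to 0.054 for Lat, -0.0439 to 0.43 for Lat2, -0.22 to 0.027 for Btk and -0.32 to 0.29 for Gab2. In BMMCs they ran from -0.30 to 0.25 for Fcer1a, -0.28 to 0.14 for Ms4a2, -0.0294 to 0.18 for Syk, -0.23 to 0.0111 for Lat, -0.14 to 0.40 for Lat2, -0.12 to 0.20 for Btk and -0.0034 to 0.0598 for Gab2.

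Replicate numbers were not treated as pairs in the main fits. The correlation of same-numbered deviations between genotypes ran from -0.47 to 0.23 in GMPs and from -0.26 to 0.46 in CMPs. With 4 pairs in each, it cannot decide whether the numbers pair the libraries. In CMPs its mean was 0.22 against -0.08 for other numbers, and 3 of 4 libraries correlated best with their own number, as a hint from the data. Between Prss57-/- GMPs and CMPs it ran from -0.0037 to 0.68, with a mean of 0.25 against -0.08 for other numbers, and 1 of 4 libraries correlated best with its own number. Between wild-type GMPs and CMPs the mean was 0.16 against -0.07, also with 1 of 4 libraries best with its own number. The block changed no call of the 10 genes except that Fyn was called between Prss57-/- GMPs and CMPs, at -1.08. Among the list genes it lost 1 call, Fgr, and gained 3, Cbl, Itpr1 and Prkcd, between Prss57-/- GMPs and CMPs. It lost 4 of 36 calls between Prss57-/- BMMCs and GMPs, among them Cd300a, Lilrb4a and Vav3, and changed no list call in the other comparisons. Fcer1a, with 110 to 487 reads per CMP library, had a coefficient of variation of 111% in Prss57-/- CMPs and of 37.9% without library 2.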

Other observations

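Eosinophil and neutrophil markers, which the comparisons above do not use, separated the progenitors as well. The 5 eosinophil markers, led by Prg2, summed to 1944 ± 371 normalized RPKM in wild-type GMPs and 24.1 ± 13.7 in wild-type CMPs (SD, n = 4 each), and 2 of 5 were called higher in wild-type GMPs. The 7 neutrophil markers summed to 2358 ± 734 and 21.2 ± 9.28, and 6 of 7 were called higher. The 5 erythroid markers summed to 38.2 ± 13.7 and 893 ± 219, and 4 of 5 were called lower. B cell markers summed to 41.1 ± 4.03 in wild-type GMPs and 34.7 ± 6.70 in wild-type CMPs, and T cell markers to 0.473 ± 0.262 and 0.684 ± 0.255. The 5 megakaryocyte markers summed to 946 ± 108 in wild-type BMMCs (SD, n = 5), where 2 of 5 were called higher and 3 lower than in wild-type GMPs.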
